A study of Mus musculus with 7 samples.

Results

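The genes described are those of 2 neuropeptide systems in cells that express Kiss1 in the mouse anteroventral periventricular nucleus (AVPV). This preoptic nucleus is larger in females and drives the ovulatory surge of luteinizing hormone. They are the neurotensin gene Nts with Ntsr1, Ntsr2 and Sort1, whose products bind neurotensin, and the galanin gene Gal with its receptor genes Galr1, Galr2 and Galr3. Members were chosen by name, and all 8 were found among the 55384 listed genes. All 8 were among the 18282 genes that passed the filter on low counts. Ribosome-bound RNA was measured in 7 libraries of female mice, 3 labelled E2 (estradiol-treated) and 4 labelled GDX (ovariectomized, no estradiol). The labels do not say whether the E2 females were also ovariectomized, nor give an age, a dose or a duration. Both groups carried the strain label Kiss1Cre+/Rpl22HA+/+ on a C57BL/6 background, so that Cre recombinase driven by Kiss1 leaves an HA tag on the ribosomal protein Rpl22. The tag stays in every cell in which that Cre has acted, and tagged ribosomes were pulled down from micropunches pooled from 4 brains per library. No RNA of unselected punches was analysed here, and the p-values measure the spread between pools rather than between animals.

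Neurotensin and galanin are secreted peptides that neurons store in dense-core granules and release beside classical transmitters. Ntsr1 encodes the high-affinity neurotensin receptor, which acts through Gq and raises intracellular calcium. Ntsr2 encodes a receptor of lower affinity that astrocytes as well as neurons express, and Sort1 encodes sortilin, a sorting receptor of the Golgi and endosomes that also binds neurotensin, proneurotrophins and progranulin. Galr1 and Galr3 encode galanin receptors that act through inhibitory Gi and Go proteins, and Galr2 encodes one that acts mainly through Gq. In rats, neurotensin cells of the preoptic area are known to respond to estrogen, and preoptic galanin neurons are known for roles in reproduction and parental behaviour.

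Sequences upstream of the 3 genes that passed the test are shown because the same window could be searched in each for motifs. They are RefSeq sequences of build GRCm38.p6, read 5′ to 3′ on the strand of the gene, and capitals mark every match to a searched motif. The Nts sequence is chr10:102490487-102490668, minus strand, and stops 69 bases before the RefSeq start, where the GENCODE gene begins. Those of Gal (chr19:3414545-3414794, minus strand) and Ntsr1 (chr2:180499726-180499975, plus strand) hold the 250 bases before the start.
Nts: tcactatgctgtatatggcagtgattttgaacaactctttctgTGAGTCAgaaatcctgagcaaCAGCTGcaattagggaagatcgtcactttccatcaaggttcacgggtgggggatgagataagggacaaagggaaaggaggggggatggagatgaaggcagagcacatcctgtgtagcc
Gal: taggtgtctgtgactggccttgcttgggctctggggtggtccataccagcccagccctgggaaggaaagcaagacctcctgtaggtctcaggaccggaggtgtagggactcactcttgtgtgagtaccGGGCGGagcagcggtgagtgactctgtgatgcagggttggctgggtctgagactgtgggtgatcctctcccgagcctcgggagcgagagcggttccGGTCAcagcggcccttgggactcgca
Ntsr1: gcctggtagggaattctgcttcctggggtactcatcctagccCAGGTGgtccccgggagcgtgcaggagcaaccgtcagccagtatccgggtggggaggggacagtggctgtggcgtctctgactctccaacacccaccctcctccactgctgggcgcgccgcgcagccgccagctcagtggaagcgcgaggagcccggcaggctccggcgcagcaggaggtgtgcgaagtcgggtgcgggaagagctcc
The motifs searched on both strands were the palindromic estrogen response element (GGTCA and TGACC with 3 bases between), its GGTCA arm alone, the AP-1 site (TGANTCA), the cAMP response element (TGACGTCA), the E-box (CANNTG), the GC box (GGGCGG) and the TATA box (TATAAA). The arm lies inside the whole element. The Nts window held an AP-1 match, TGAGTCA, from 207 to 201 bases before the start, and 6.75% of all 32851 promoter windows of the same length held at least 1 such match. It also held an E-box (CAGCTG), as did 66.2% of all windows. The Gal window held a GGTCA arm from 26 to 22 bases before the start, against 35.2% of all windows with a match, and a GC box from 122 to 117 bases, against 32.7%. The Ntsr1 window held an E-box (CAGGTG) from 208 to 203 bases before the start and no other match. The whole estrogen response element, found in 0.0639% of all windows, matched in none of the windows of Nts, Gal, Ntsr1, Ntsr2 and Galr2, the 5 members used for this search. The GGTCA arm also matched in the windows of Ntsr2 and Galr2, which did not pass the test below. The 250 bases before the start were 48% G or C for Nts, 62.4% for Gal and 68.4% for Ntsr1, against a median of 52.4% over all windows. These matches describe the letters only.

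The E2 libraries held 30929844 to 33438130 counts and the GDX libraries 29207485 to 36213063. A floor of 3 counts corresponded to 0.0818 to 0.101 CPM (counts per 1000000 of the library size, as scaled by edgeR). The cells were checked by their own genes. Kiss1, which drives the Cre, averaged 415 ± 60.8 CPM (SD, n = 3) in E2 and 66.5 ± 31.7 CPM (SD, n = 4) in GDX, but it shares exon sequence with Gm28040, which makes its level uncertain. Pgr, a classic estrogen target, averaged 117 CPM in E2 and 28.3 CPM in GDX. Esr1, the estrogen receptor alpha gene, averaged 194 CPM in E2 and 255 CPM in GDX and did not pass (edgeR adjusted p = 0.0901). It did pass, as lower in E2, by DESeq2 (adjusted p = 0.0148) and with no low-count filter (0.000313). The tagged gene Rpl22 averaged 34.5 CPM in E2 and 30.7 CPM in GDX and did not pass (edgeR adjusted p = 0.451). Kiss1 and Pgr rose, with edgeR adjusted p values of 0.0158 and 1.42e-06. The Kiss1 call was lost without E2 replicate 1 (adjusted p = 0.0574), E2 replicate 2 (0.0593) or GDX replicate 1 (0.0575), and with the non-neuronal score, defined below, as a covariate (log2 fold change 3.15, adjusted p = 0.139).

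RNA of other cell types was present in all 7 libraries, with none of the markers at 0 counts in any library. The astrocyte score, a mean log2 CPM over 10 markers, was 5.94 to 6.24 in E2 and 6.42 to 7.51 in GDX, with summed levels of 983 to 1167 CPM and 1335 to 3534 CPM in the same order. The endothelial score was 3.9 to 4.66 in E2 and 4.7 to 6.05 in GDX, and the ependymal score 1.46 to 2.08 and 2.11 to 2.86. These 3 scores did not overlap between the groups, with all E2 libraries below all GDX libraries. Oligodendrocyte, microglial, pan-neuronal and neighbouring-neuron scores did overlap (differences E2 minus GDX of -0.238, 0.00392, 0.0549 and 0.53). The score of 6 AVPV kisspeptin markers was higher in E2 by 0.968, without overlap (8.44 to 8.49 in E2, 7.31 to 7.74 in GDX), but that list holds Kiss1 and Pgr. Of its 6 markers 4 rose by edgeR, Kiss1 and Pgr among them, and 2 did not pass. In two-sided exact permutation tests of the scores p ran from 0.0286, the smallest possible, for the kisspeptin markers to 1 for the microglial ones, and none passed after adjustment over the 8 lists (0.152 or above). Of single markers of other cell types, Rarres2 (ependymal) fell and Agrp (neighbouring neurons) rose, both named after their values were seen, and none of the 28 astrocyte, oligodendrocyte, microglial and endothelial markers passed. The Rarres2 call was lost with the non-neuronal score as a covariate (adjusted p = 0.54), with each E2 replicate left out (0.0833 to 0.117) and without GDX replicate 1 (0.1). Agrp shares 114 bp of exon sequence with Gm5914 and with Ctcf, so its level is uncertain. For those 4 lists in that order, 7, 0, 0 and 4 markers had an unadjusted p under 0.05, DESeq2 called 5, 0, 0 and 0, and limma-voom called none. The mean over these 28 markers, the non-neuronal score, was 5.32 to 5.6 in E2 and 5.66 to 6.41 in GDX. This score holds no ependymal marker. Of 5 tested ependymal markers, all 5 had an unadjusted p under 0.05 in edgeR, DESeq2 called 2 and limma-voom called 1. In such RNA, fewer cells of a type and less RNA per cell cannot be told apart.

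Neurotensin RNA was higher with estradiol. Nts (ENSMUSG00000019890, 4 exons, 1248 bp of exon sequence on chromosome 10) stood at 382, 381 and 258 CPM in the E2 libraries, against 92.1, 68.1, 98.5 and 103 CPM in the GDX libraries. The lowest E2 library held more than double the level of the highest GDX library. Nts rose 3.77-fold, with a mean of 340 ± 71.3 CPM in E2 (SD, n = 3) and 90.3 ± 15.4 CPM in GDX (SD, n = 4). Its log2 fold change, E2 over GDX, was 1.91 ± 0.18 (SE), with an edgeR adjusted p of 0.000608. By size of log2 fold change it was number 58 of the 467 genes that rose. The rise passed under all 16 alternative settings, where the log2 fold change ran from 1.80 to 2.08 and the adjusted p reached 0.0447 with the non-neuronal score as a covariate.

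**Figure D1:**
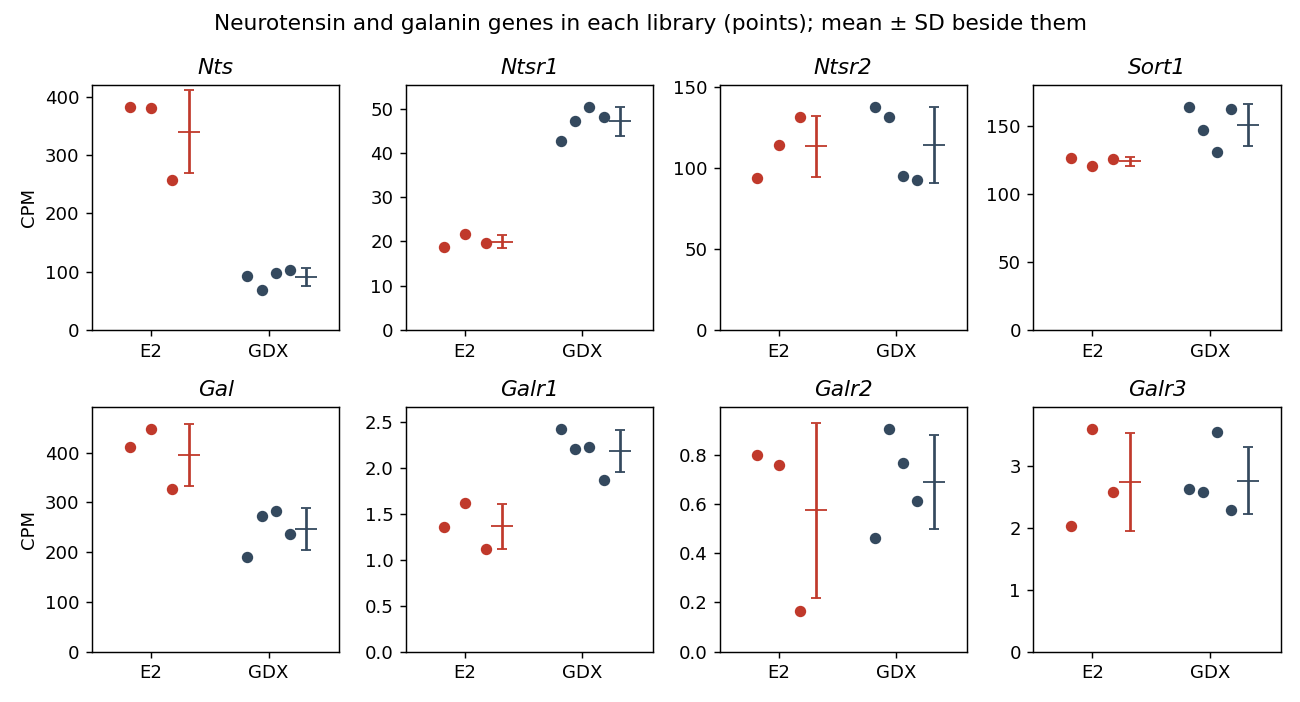
Level of each of the 8 genes (CPM, linear axes from 0) in the 3 E2 libraries (red) and the 4 GDX libraries (dark), with the mean ± SD beside the points. Nts, Gal, Ntsr1, Sort1 and Galr1 separate the groups without overlap, with Nts and Gal higher and the other 3 lower in E2.

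The receptor gene Ntsr1 moved the other way. It stood at 18.7, 21.6 and 19.5 CPM in E2, against 42.6, 47.2, 50.3 and 48.2 CPM in GDX. The libraries of each group lay close together, with coefficients of variation of 7.38% in E2 and 6.85% in GDX, the lowest of the 8 genes in GDX. Ntsr1 (ENSMUSG00000027568, 4 exons, 3917 bp on chromosome 2) fell 2.36-fold, with means of 20 ± 1.47 CPM in E2 and 47.1 ± 3.23 CPM in GDX. Its log2 fold change was -1.24 ± 0.10, with an edgeR adjusted p of 2.46e-05, the lowest of the 8 genes. It was number 58 of the 243 genes that fell, by size of log2 fold change, and number 43 of all tested genes by adjusted p. All 16 alternatives kept this call, with log2 fold changes between -1.32 and -1.20 and adjusted p of at most 0.000552.

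No change passed for Ntsr2. It stood at 94.1, 115 and 132 CPM in E2, against 138, 132, 95.3 and 92.4 CPM in GDX. The ranges of the groups overlapped almost fully, and the log2 fold change was -0.01 ± 0.17 (edgeR adjusted p = 0.985). Beside this, the astrocyte score was 7.31, 6.42, 6.46 and 7.51 in GDX replicates 1 to 4. Of the 2 GDX libraries with the highest astrocyte scores, replicate 1 held the highest Ntsr2 level of all libraries and replicate 4 the lowest. The part of astrocyte RNA in the Ntsr2 level was not tested.

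Sort1 (20 exons, 7569 bp on chromosome 3) stood at 126, 120 and 126 CPM in E2, against 164, 147, 131 and 162 CPM in GDX. Every E2 library lay below every GDX library, although the nearest of them differed little. The means were 124 ± 3.35 CPM in E2 and 151 ± 15.4 CPM in GDX, and the log2 fold change of -0.28 ± 0.09 did not pass (edgeR adjusted p = 0.112). It did pass by DESeq2 (adjusted p = 0.0412), by limma-voom (0.0371), with no low-count filter (0.0326) and without GDX replicate 3 (0.0203). With the non-neuronal score as a covariate the log2 fold change was -0.09 (adjusted p = 0.897).

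Galanin RNA was also higher with estradiol, by less than neurotensin RNA. Gal (ENSMUSG00000024907, 6 exon blocks, 788 bp on chromosome 19) stood at 412, 448 and 327 CPM in E2, against 190.4, 274, 284 and 236 CPM in GDX. The groups did not overlap, with the lowest E2 library near the highest GDX library. Gal rose 1.61-fold, with means of 395 ± 62.1 CPM in E2 and 246 ± 42.3 CPM in GDX and a log2 fold change of 0.69 ± 0.15 (edgeR adjusted p = 0.0411). It was number 234 of the 467 genes that rose by size. The call lay close to the threshold. It was lost without E2 replicate 1 (adjusted p = 0.17), E2 replicate 2 (0.159), GDX replicate 2 (0.0506) or GDX replicate 4 (0.125), and with library sizes alone (0.0533). Leaving out GDX replicates 1 and 4 together kept it (log2 fold change 0.50, adjusted p = 0.0223). With the non-neuronal score as a covariate the log2 fold change was 0.33 (adjusted p = 0.464). In GDX replicates 1 to 4 that score was 6.41, 5.78, 5.66 and 6.29, so the GDX libraries ordered by falling score were ordered by rising Gal. The score did not overlap between the groups, and its part in the Gal result was not tested.

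**Figure D2:**
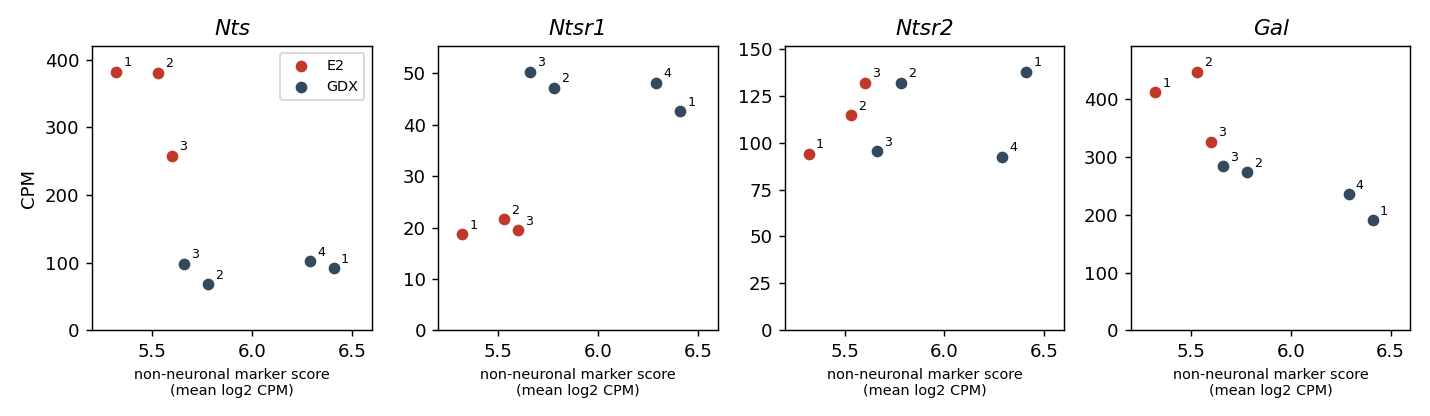
Level of Nts, Ntsr1, Ntsr2 and Gal (CPM, from 0) against the non-neuronal marker score (mean log2 CPM of 28 markers) in the 3 E2 libraries (red) and 4 GDX libraries (dark), with replicate numbers beside the points. GDX replicates 2 and 3, with scores of 5.78 and 5.66, held 68.1 and 98.5 CPM of Nts and 47.2 and 50.3 CPM of Ntsr1. GDX replicates 1 and 4, with scores of 6.41 and 6.29, held 92.1 and 103 CPM of Nts and 42.6 and 48.2 CPM of Ntsr1. Gal was lower in each library with a higher score, apart from E2 replicate 1. The score did not overlap between the groups, and its part in any of these levels was not tested.

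Galanin receptor RNA was scarce in both groups. Galr1 stood at 1.36, 1.62 and 1.12 CPM in E2, against 2.43, 2.21, 2.23 and 1.87 CPM in GDX, from 34 to 49 counts and 66 to 89 counts per library. All E2 libraries were lower, but the log2 fold change of -0.68 ± 0.32 did not pass (edgeR adjusted p = 0.309). Galr2 stood at 0.801, 0.758 and 0.165 CPM in E2, against 0.464, 0.906, 0.769 and 0.614 CPM in GDX. E2 replicate 3 held only 5 counts of it, and the log2 fold change of -0.25 ± 0.61 gives no direction at this depth (adjusted p = 0.893). Galr3 stood at 2.03, 3.59 and 2.58 CPM in E2, against 2.62, 2.58, 3.54 and 2.29 CPM in GDX, with overlapping groups and a log2 fold change of -0.01 ± 0.30 (adjusted p = 0.99). Galr3 shares 363 bp of its exons with a second gene model named Gcat (ENSMUSG00000116378) on the same strand, which held 1.15 to 2.25 CPM in E2 and 1.01 to 3.8 CPM in GDX, so the Galr3 level is uncertain. Of the other members, Sort1 alone shares exon sequence with another gene, an antisense gene with at most 1.49 counts in any library.

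Of the 8 genes, 2 rose, 1 fell and 5 did not pass, so 3 of 8 were called. Among all tested genes 3.88% were called, 2.55% higher and 1.33% lower, and the members had been picked with earlier results of these data known. Across all genes 467 rose and 243 fell, against 385 and 352 with library sizes alone. In 5 of the 8 the E2 and GDX libraries did not overlap, against 16.5% of all tested genes. The median log2 fold change of the 8 was -0.133, against 0.00403 over all tested genes, and the members ran from -1.24 for Ntsr1 to 1.91 for Nts. The 2 peptide genes were thus on the higher side, and the estimates of all 6 genes of peptide-binding proteins were below 0. For Ntsr2, Galr2 and Galr3 the estimate was within its SE of 0, and its sign turned under some alternatives.

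**Figure D3:**
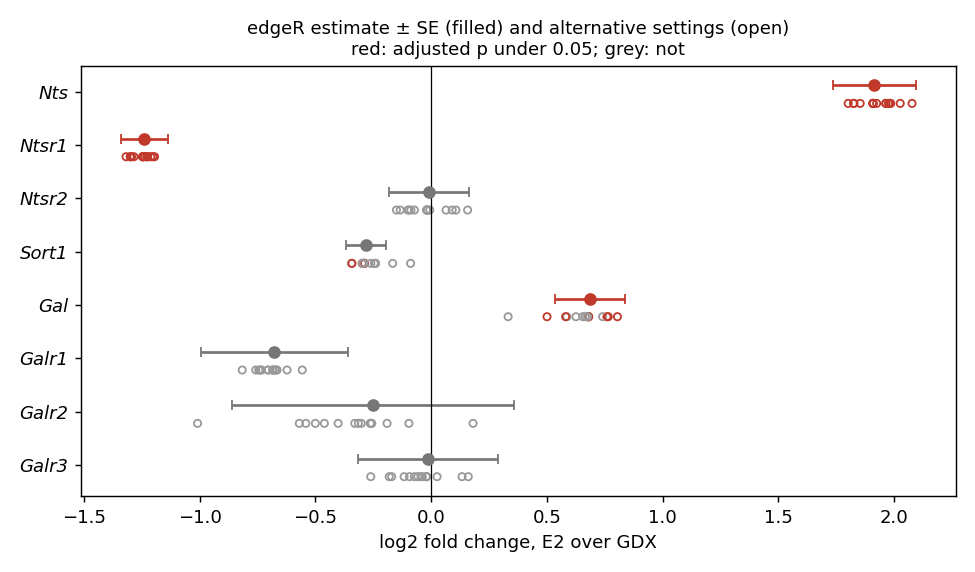
Log2 fold change, E2 over GDX, of the 8 genes as estimated by edgeR with its SE (filled) and under each alternative setting (open), in red where the adjusted p was under 0.05. Nts and Ntsr1 are red throughout, Gal is red in 9 of 16 alternatives and Sort1 in 4 of 16.

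Levels between genes were compared as CPM per kb of exon sequence. In the E2 libraries the order was Gal (502 CPM per kb), Nts (273), Ntsr2 (36.4), Sort1 (16.4), Ntsr1 (5.09), Galr3 (2.20), Galr1 (0.457) and Galr2 (0.234). The order in the GDX libraries was the same, at 312, 72.3, 36.7, 19.9, 12, 2.22, 0.731 and 0.280 CPM per kb. Within each group the libraries of neighbouring genes in this order did not overlap. The peptide genes thus led in both groups, and every galanin receptor gene lay below every gene of a neurotensin-binding protein. The distance between the 2 peptides was smaller in E2. Nts CPM was 0.79 to 0.928 of Gal CPM in the E2 libraries and 0.249 to 0.483 in the GDX libraries, a ratio within each library that needs no scaling between libraries. The log2 ratio averaged -0.227 ± 0.116 in E2 (n = 3) and -1.45 ± 0.424 in GDX (n = 4), a difference of 1.22 and the two-sided exact permutation p was 0.0286, the smallest that 3 against 4 libraries allow. That difference ran from 1.03 to 1.35 with any 1 library left out, where the exact permutation p was 0.0667 to 0.1. Fewer libraries also raise the smallest p possible. The ratio is made of the Nts and Gal levels given above, so it is not independent of their tests.

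Among 31 neuropeptide genes, Gal had the third highest level per kb in E2 and the second highest in GDX. Over all 7 libraries the 5 highest means per kb were those of Penk (enkephalin, 681 CPM per kb), Gal (393), Kiss1 (277), Nts (158) and Cartpt (137). In E2 the level of Gal overlapped that of Kiss1 (533 CPM per kb) and lay below that of Penk (791). Nts was number 5 in E2, where its libraries overlapped those of Nmb (neuromedin B, 277 CPM per kb) and Cartpt (206), and number 6 in GDX, where its place was not resolved. There its libraries, at 54.6 to 82.1 CPM per kb, overlapped those of every gene from number 3 to number 8, Oxt (141), Kiss1 (85.4), Cartpt (85.3), Avp (67.9) and Pdyn (60.4). Nmb, Oxt, Avp and Pdyn are named as neighbours in this order, after their values were seen. Nmb shares exon sequence with Sec11a, so its level is uncertain. Kiss1 as counted had a mean of 85.4 CPM per kb in GDX, with all its libraries below those of Gal. However, Gm28040 shares 498 bp of the Kiss1 exons and held a mean of 17370 counts over the 7 libraries, against 6843 for Kiss1. The places of Gal and Kiss1 relative to each other are therefore not settled in either group. Penk, with a log2 fold change of 0.40, did not pass (edgeR adjusted p = 0.0727), though it did by DESeq2 (0.0112), by limma-voom (0.0134), with no low-count filter (6.55e-05) and without GDX replicate 3 (0.007). Cartpt rose (1.27, adjusted p = 1.88e-05). Of the 29 neuropeptide genes tested, Nts, Gal and Kiss1 among them, 10 rose and 1 fell, so 37.9% were called, against 3.88% of all tested genes. The list's median log2 fold change was 0.469, against 0.00403 over all tested genes. This list was chosen with earlier results of these data known, so neither its share nor its median is independent of them. With the non-neuronal score as a covariate 6 of the 10 passed, with Gal and Kiss1 among those lost, and 7 to 10 of them passed with 1 library left out. The gene that fell was Pdyn (dynorphin, named after its value was seen), a call lost with 5 of 7 single libraries left out, each E2 replicate (adjusted p = 0.0658 to 0.0836) and GDX replicates 2 and 4 (0.054 and 0.0665).

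**Figure D4:**
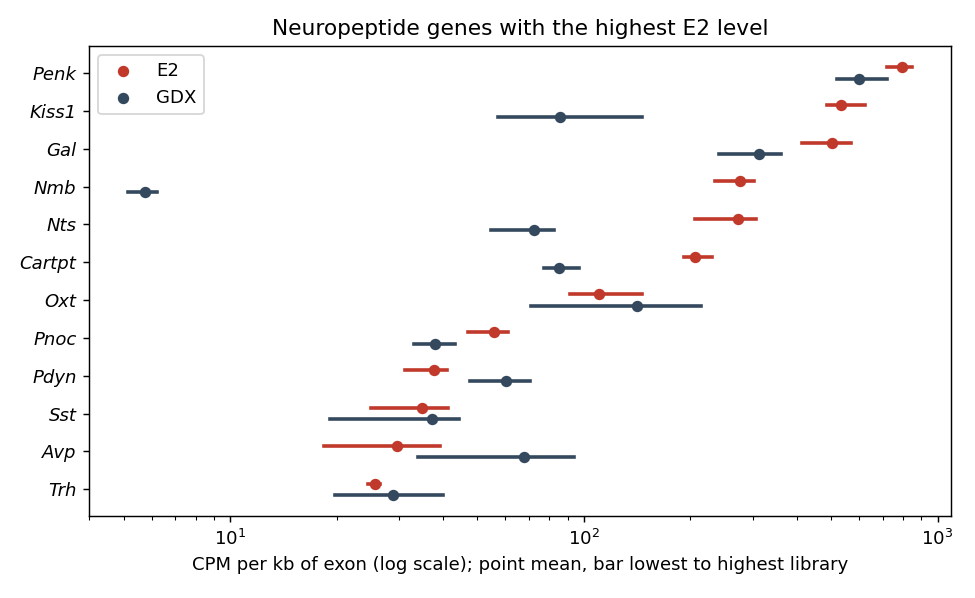
The 12 neuropeptide genes with the highest level in E2, as CPM per kb of exon sequence on a log axis, with the mean (point) and the lowest to highest library (bar) of the 3 E2 libraries (red) above those of the 4 GDX libraries (dark). Gal lies at 502 in E2 and 312 CPM per kb in GDX, and Nts at 273 and 72.3 CPM per kb in the same order.

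The genes with a pattern most like that of Nts were found by the root mean square difference of centred log2 CPM over the 7 libraries, among 11624 genes compared. They were Tmem35a, which encodes a chaperone of nicotinic receptors (difference 0.194), Nrip1, a nuclear receptor corepressor gene (0.208), Shisa2 (0.209) and Maob, which encodes a monoamine oxidase (0.223). All 4 rose, as the shared step between the groups requires, from 3.19-fold for Nrip1 to 4.93-fold for Maob. For Gal the nearest were Ankrd55 (0.111), the neuropeptide Y receptor gene Npy1r (0.131), the serotonin receptor gene Htr5a (0.136) and the cytidine deaminase gene Cda (0.142). Of these Ankrd55 rose (log2 fold change 0.61, edgeR adjusted p = 0.0186), and the other 3 had log2 fold changes of 0.51 to 0.63 that did not pass.

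Relatives of the 2 systems were read from lists that the members do not belong to. Of 8 genes of related ligands and receptors 5 were tested, of which 1 rose, 1 fell and 3 did not pass. So 40% were called by edgeR, against 3.88% of all tested genes, on a short list chosen with earlier results of these data known. DESeq2 and limma-voom each called 3 of the 5. Ghsr, the ghrelin receptor gene of the same receptor family as the neurotensin receptors, had 44.2 CPM in E2 and 4.58 CPM in GDX and rose 9.66-fold (log2 fold change 3.27 ± 0.16, edgeR adjusted p = 3.43e-07). Trhr, the receptor gene of thyrotropin-releasing hormone, fell, with 8.44 CPM in E2 and 14 CPM in GDX (log2 fold change -0.73 ± 0.18, edgeR adjusted p = 0.0439). Its fall passed in 9 of 16 alternatives, where the adjusted p reached 0.469. The call was lost with 4 of 7 single libraries left out, namely E2 replicate 1 (0.201), E2 replicate 3 (0.173), GDX replicate 1 (0.122) and GDX replicate 2 (0.103). Spx, whose peptide spexin activates galanin receptors, had 1.01 CPM in E2 and 1.44 CPM in GDX and did not pass (adjusted p = 0.733). Kiss1r, the kisspeptin receptor gene and a relative of the galanin receptor genes, had 7.75 CPM in E2 and 6.66 CPM in GDX and did not pass either (0.733). Nmur2, named after its value was seen, had a log2 fold change of -0.92. It did not pass by edgeR (adjusted p = 0.0539) but did by DESeq2 (0.00469). Galp, named after its value was seen, whose product is galanin-like peptide, was at 0.108 CPM in E2 and 0.0889 CPM in GDX, near the floor, and was not tested.

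Of 10 tested relatives and partners of sortilin 1 rose and none fell, so 10% were called, against 3.88% of all tested genes. Psap, the prosaposin gene, whose product sortilin carries to lysosomes, had 2180 CPM in E2 and 1832 CPM in GDX. Its log2 fold change of 0.25 ± 0.06 passed narrowly (edgeR adjusted p = 0.0473), in 6 of 16 alternatives, and was lost with 5 of 7 single libraries left out, each E2 replicate (adjusted p = 0.149 to 0.187) and GDX replicates 1 and 2 (0.139 and 0.134). Sorl1 and Sorcs1, of the same receptor family as Sort1, had log2 fold changes of -0.28 and -0.16 that did not pass (adjusted p = 0.355 and 0.443). The list's median was -0.0784, against 0.00403 over all tested genes.

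None of 13 tested genes of peptide processing and breakdown passed by edgeR, where 3 had an unadjusted p under 0.05, DESeq2 called 2 and limma-voom called 1. They include Pcsk1 and Pcsk2, convertases that cut peptide precursors, at 71.9 CPM in E2 and 60.9 CPM in GDX and at 351 CPM in E2 and 315 CPM in GDX (adjusted p = 0.31 and 0.405). The list's log2 fold changes ran from -0.454 to 0.52 with a median of -0.0261. Nor did any of 15 receptor coupling genes pass, by edgeR, DESeq2 or limma-voom, or with an unadjusted p under 0.05 in edgeR. Gnaq and Gna11, which encode the G proteins of the Ntsr1 and Galr2 receptors, were at 161 CPM in E2 and 162 CPM in GDX and at 136 CPM in E2 and 133 CPM in GDX. Their log2 fold changes were -0.01 ± 0.08 and 0.03 ± 0.07 (edgeR adjusted p = 0.968 and 0.911). The list's median was -0.1.

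**Figure D5:**
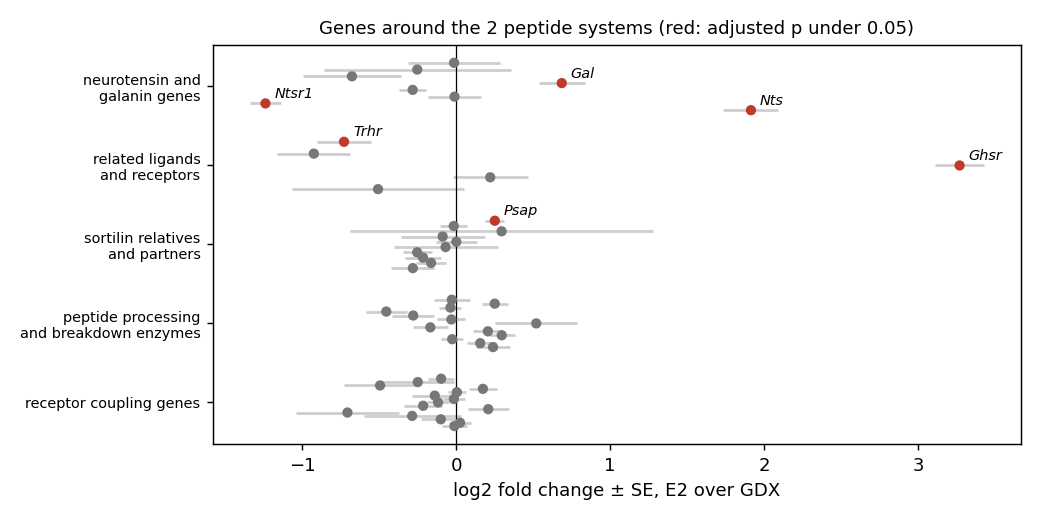
Log2 fold change, E2 over GDX, with its SE for the tested genes of the neurotensin and galanin systems and of 4 lists around them, in red and named where the edgeR adjusted p was under 0.05. Ghsr rose and Trhr fell among relatives, Psap rose among sortilin partners, and no gene of the processing and coupling lists passed.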

How the data were processed

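Ribosome-bound RNA was sequenced by the submitters, from unstranded libraries of polyadenylated RNA per the labels' protocols. The deposited table holds expected counts per gene and library, unscaled, of which 33.1% of those above 0 had a decimal part. Trimmomatic 0.38, STAR 2.6.0a, RSEM 1.3.0 and build mm10 are named in the submitters' processing notes, without roles. The annotation is not given in the sources used here. Symbols and exon lengths came from GENCODE vM21 (GRCm38), which matched 55203 of 55384 identifiers.

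Expected counts were rounded and tested in R 4.3.3 with edgeR 4.0.16 (TMM, filterByExpr with a minimum count of 10 and total of 15, robust quasi-likelihood test, no covariate), E2 over GDX. Benjamini-Hochberg adjustment covered all 18282 tested genes, and genes under 0.05 were called. CPM use the TMM-scaled library sizes, and log2 levels a prior count of 2. Alternatives used DESeq2 1.42.0, limma 3.58.1, other filters and scalings, a replicate block, the non-neuronal score and left-out libraries. Library sizes alone, and leaving out GDX replicates 1 and 4 together, were chosen after seeing the data. The fits were tested on simulated counts. Pairs of libraries within a group differed by far more than sampling noise (chi-square per gene of 14.3 to 75.2), so all were counted as separate. Floors cover counting error only.

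The members and the lists were chosen with earlier results of these data known. The text names the 8 members, Kiss1, Rpl22, Esr1 and Pgr, the called and first 2 uncalled tested genes of each list around the peptides, the 5 neuropeptide genes with the highest mean per kb, and the 4 genes most like Nts and most like Gal among those with a mean of at least 5 CPM, without predicted genes. Other genes were named after their values were seen: Galp, Nmur2, Rarres2, Agrp, Nmb, Oxt, Avp and Pdyn.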

Additional observations from a re-analysis of the deposited data

Results flagged for a closer look

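The oligodendrocyte marker score of GDX replicate 1 was 8.97, far from the other GDX libraries, which lay between 7.99 and 8.15. It was the 1 value set apart in this way among 17 groups of 4 GDX libraries examined, where chance sets apart about 1 in 20. The same library held the lowest Gal level of all, 190.4 CPM, and 92.1 CPM of Nts, within the range of the other GDX libraries. Its astrocyte and endothelial scores, 7.31 and 5.54, were also above those of GDX replicates 2 and 3. GDX replicate 4, with an oligodendrocyte score of 8.01, held the next lowest Gal level, 236 CPM. Any part of oligodendrocyte or other non-neuronal RNA in these levels was not tested.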

How the results depend on the processing

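The calls of Nts and Ntsr1 held under all 16 alternatives. Gal passed in 9 of 16: its log2 fold change was 0.676 with the replicate block (adjusted p = 0.108), 0.332 with the non-neuronal score as a covariate, 0.625 with library sizes alone and 0.581 to 0.804 with 1 library left out, and the count of members that rose was 1 in those 3 fits and 1 to 2 with 1 library left out. Sort1 also passed with no filter (-0.289), by DESeq2 (-0.289) and by limma-voom (-0.298), which raised the count of members that fell to 2, as did leaving out GDX replicate 3 (range 1 to 2, Sort1 -0.342 to -0.242). Of the 3 members with estimates near 0, Ntsr2 turned to 0.157 with the covariate and ran from -0.134 to 0.107 with 1 library left out, Galr2 from -0.57 to 0.181 and Galr3 from -0.261 to 0.16. Over all genes, 467 rises and 243 falls became 722 and 887 with no filter, 710 and 399 by limma-voom, 223 and 94 with the covariate, 675 and 725 by DESeq2, and 268 to 591 and 96 to 428 with 1 library left out (268 and 96 without E2 replicate 1, 311 and 107 without E2 replicate 2, 135 falls without E2 replicate 3, 154 falls without GDX replicate 1, 428 falls without GDX replicate 3). With no filter 33537 genes were tested; otherwise the cause was not tested. Low-level Galr1, Galr2 and Galr3 were not tested with a mean of at least 5 CPM. Same-numbered E2 and GDX libraries did not deviate together (r of -0.0528 to -0.0309 across genes), so the numbers were not taken as pairs; the replicate block of 3 pairs gave 436 rises and 191 falls and kept Nts (1.98) and Ntsr1 (-1.23). Galr2 rests on 5 to 28 counts per library, which limits what could be detected. The block also lost the calls of Pdyn (adjusted p = 0.177), Psap (0.154), Rarres2 (0.0905) and Trhr (0.0538).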
